A study of Mus musculus with 21 samples.

Results

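Chemokine genes known from keratinocytes, 10 in number, were followed across the 7 cell populations of a mouse epidermis RNA-seq series: Ccl2, Ccl7, Ccl8, Ccl20, Ccl27a, Cxcl1, Cxcl2, Cxcl5, Cxcl14 and Cxcl16. They were taken as the rows of the 3 deposited tables whose gene name equals 1 of the 10 symbols, which gave 11 loci of 43923 in each table, because Ccl27a has a second locus on an unplaced scaffold. The series has 21 polyA RNA libraries in 7 groups of 3, all labelled as keratinocytes of the epidermis. A 3-population table has columns named CD34a6, HFSC and bulk, for wild-type total epidermal cells (read here as bulk), hair follicle stem cells purified by flow sorting, and cultured hair follicle stem cells. The labels do not say which of CD34a6 and HFSC is the sorted and which the cultured population, so the column names are kept. The column name HFSC is therefore not used here to mean sorted cells. The other 4 groups come from cultures called 3C, started from total epidermis and kept for 10 to 14 days. In the first pair, cells positive for integrin alpha6 were divided into a CD34+ and a CD34neg fraction. In the second pair, 3C cultures received cyclopamine, an inhibitor of Hedgehog signalling through Smoothened, or dorsomorphin, an inhibitor of BMP type I receptors, for 48 h, and no untreated group is set beside them. Genotype is given for the first 9 libraries only, and animals, sex, age and inhibitor doses are not given in the labels used here. The labels do not say whether the 3 libraries of a group came from separate cultures or animals.

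Chemokines are small secreted proteins that guide leukocytes along gradients through G-protein-coupled receptors. In skin, keratinocytes make some of them steadily, such as Ccl27a and Cxcl14, and others mainly after stimulation by cytokines, wounding or microbial products, among them the neutrophil attractants Cxcl1, Cxcl2 and Cxcl5 and the monocyte attractants Ccl2 and Ccl7. Many genes of the inducible kind are targets of NF-kappaB, a transcription factor family that binds short sites in promoters and enhancers.

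Several of the genes lie next to each other in the mouse genome (GRCm38). Ccl2 (chr11:82028224-82038562), Ccl7 (chr11:82045712-82047525) and Ccl8 (chr11:82115185-82116799) are in the CC chemokine cluster of chromosome 11. Cxcl5 (chr5:90759299-90761625), Cxcl1 (chr5:90891241-90893115) and Cxcl2 (chr5:90903899-90905909) are in the CXC cluster of chromosome 5. The others stand apart, namely Ccl20 (chr1:83116766-83119167), Ccl27a (chr4:41699989-41774247), Cxcl14 (chr13:56288647-56296551) and Cxcl16 (chr11:70453983-70466202). Of these loci 3 span another gene. The Ccl2 locus also covers Gm17268, the Cxcl16 locus covers Zmynd15, and the 74259-base Ccl27a locus covers Il11ra1 and other genes. How reads shared between overlapping genes were divided is not given in the sources used here, so these 3 genes carry that uncertainty, and Ccl27a also that of near-identical copies. Genes outside the 10 were not checked for overlap and can carry the same uncertainty. Cxcl10 is listed at the same locus as Cxcl11, and Cxcr6 at that of Ccr9. The loci listed for Tslp and Ackr4 are longer than that of Ccl27a. The second Ccl27a locus was listed at 0.127 FPKM in bulk and at 0 in the other 6 populations, and it was never tested.

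RefSeq promoters (GRCm38.p6) were matched for 6 of the 10 genes, and the 5 below are shown because they separate the genes by short motifs. Each is the 250 bases before the start site, 5' to 3' on the gene's strand. Capitals mark a match to the kappaB motif, the consensus of NF-kappaB sites, or, in Ccl8, to TATAAA, the core of the TATA box.
Cxcl1 (chr5:90890995-90891244, plus strand): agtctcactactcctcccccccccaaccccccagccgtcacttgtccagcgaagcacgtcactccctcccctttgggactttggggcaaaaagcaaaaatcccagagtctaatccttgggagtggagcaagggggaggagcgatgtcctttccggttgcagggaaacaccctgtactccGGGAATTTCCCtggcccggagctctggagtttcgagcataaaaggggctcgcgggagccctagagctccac
Cxcl2 (chr5:90903649-90903898, plus strand): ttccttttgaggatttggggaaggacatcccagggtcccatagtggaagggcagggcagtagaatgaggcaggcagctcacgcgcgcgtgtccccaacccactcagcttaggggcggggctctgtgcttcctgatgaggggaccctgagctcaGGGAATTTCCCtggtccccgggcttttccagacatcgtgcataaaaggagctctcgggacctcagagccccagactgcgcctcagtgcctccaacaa
Ccl20 (chr1:83116516-83116765, plus strand): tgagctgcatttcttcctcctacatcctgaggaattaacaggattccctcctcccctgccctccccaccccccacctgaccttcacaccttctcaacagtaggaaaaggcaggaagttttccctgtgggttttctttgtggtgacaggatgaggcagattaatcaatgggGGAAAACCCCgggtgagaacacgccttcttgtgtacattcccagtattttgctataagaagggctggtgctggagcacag
Ccl8 (chr11:82114935-82115184, plus strand): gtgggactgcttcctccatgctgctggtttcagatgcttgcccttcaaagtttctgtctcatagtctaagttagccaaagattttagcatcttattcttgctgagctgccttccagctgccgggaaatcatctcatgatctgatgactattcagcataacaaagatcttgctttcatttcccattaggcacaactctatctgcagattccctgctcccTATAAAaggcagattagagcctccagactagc
Cxcl14 (chr13:56296552-56296801, minus strand): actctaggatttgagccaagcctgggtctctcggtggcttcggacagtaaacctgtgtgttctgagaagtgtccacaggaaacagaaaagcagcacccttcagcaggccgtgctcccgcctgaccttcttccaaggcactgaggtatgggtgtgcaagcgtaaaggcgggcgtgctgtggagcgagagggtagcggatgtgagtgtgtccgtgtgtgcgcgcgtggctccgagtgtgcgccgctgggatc
The kappaB motif was searched on both strands, and it was found in Cxcl1, Cxcl2 and Ccl20. In Cxcl1 it starts 71 bases before the start site and in Cxcl2 97 bases before it, with overlapping matches on the 2 strands, and in Ccl20 the match is 80 bases before the start site on the minus strand. The longest run of letters that the Cxcl1 and Cxcl2 windows share, GGGAATTTCCCTGG of 14 bases, contains this match. Of 32851 promoters in the RefSeq table, 7.25% hold the motif. Neither Ccl8, Cxcl14 nor any of the 3 Ccl27a promoters holds it. TATAAA was found on either strand only in Ccl8 among these genes, 32 bases before the start site, and 12.4% of all promoters hold it. A match describes letters in this window and is not evidence of binding. Promoters of Ccl2, Ccl7, Cxcl5 and Cxcl16 were not matched.

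Values are FPKM, a read level scaled for transcript length and library size, with 1 value per gene and population. The tables hold no value per library, so no SD is given, the depth is unknown, and every call is the authors' adjusted p under 0.05. The genes were selected on levels seen in these tables, among them the HFSC and bulk FPKM of Cxcl1 and Ccl2, so folds and calls below are descriptions. All 9 keratinocyte markers were above 0 in all 7 populations, with Krt5 or Krt14, basal keratins, the highest except in bulk, where Krt10, a keratin of differentiating cells, was the highest. The bulge marker Cd34 was at 327 FPKM in CD34a6, 8.70 in HFSC and 10.6 in bulk. Summed over 5 bulge markers, Cd34 among them, FPKM were 10771 in CD34a6, 104 in HFSC and 4832 in bulk. Krt15 made up 9923 of this sum in CD34a6 and 4791 in bulk. The authors' deposited table called all 5 lower in HFSC than in CD34a6, where 29.0% of 13962 tested loci were called lower. The summed FPKM of 11 Langerhans and myeloid markers were 433 in bulk, 10.1 in CD34a6 and 8.03 in HFSC, and those of 5 T cell markers 80.3, 0.253 and 0.217. In these RNA pools, fewer cells of a type and less RNA per cell cannot be told apart.

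The 3-population table divided the genes into an HFSC group and a group of bulk and CD34a6. HFSC held all 10 genes at 10 FPKM or more, whereas CD34a6 and bulk each held 3. In HFSC the level was spread over many genes, with Ccl2 at 27.1% and Cxcl16 at 25.8% of the summed 588 FPKM. In CD34a6, Cxcl14 alone made up 92.8% of 846 FPKM, and in bulk Ccl27a made up 68.1% and Cxcl14 21.1% of 631 FPKM. In the authors' deposited table, 7 of 10 tested genes were called higher in HFSC than in bulk, where 19.0% of 14035 tested loci were, and 2 were called lower, where 24.7% of loci were (43.7% in either direction). Against CD34a6, 4 of 10 were called higher in HFSC (25.2% of 13962 loci) and 1 lower (29.0%, and 54.2% in either direction). In CD34a6 against bulk, 5 of the genes were tested, 1 was called higher (22.0% of 14441 loci) and 2 lower (24.3%, and 46.3% in either direction). The values of each of CD34a6, HFSC and bulk serve in more than 1 of these comparisons, so the counts are not independent of each other. Summed FPKM over all loci was lower than in bulk by 1.17 on the log2 scale in CD34a6 and by 0.93 in HFSC, so folds against bulk depend on the scaling. With the populations scaled to the same total, no called chemokine gene changed direction in this table.

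**Figure D1:**
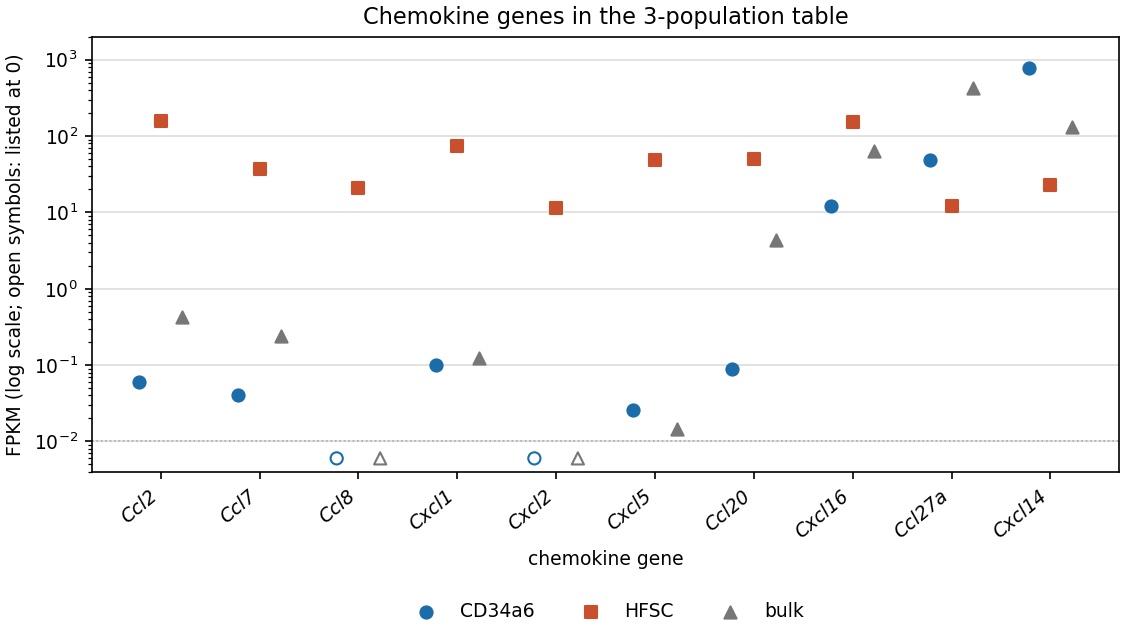
FPKM of each chemokine gene (log axis) in CD34a6 (circles), HFSC (squares) and bulk (triangles), 1 value per population, with genes listed at 0 drawn as open symbols under the dotted line. HFSC is the highest of the 3 for the first 8 genes and the lowest for Ccl27a and Cxcl14.

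The monocyte attractants of chromosome 11 were at 21.1 FPKM or more in HFSC and under 1 FPKM in CD34a6 and bulk. Ccl2, the main ligand of the receptor Ccr2, was at 0.0601 FPKM in CD34a6, 159.7 in HFSC and 0.433 in bulk. Ccl7, a second Ccr2 ligand, was at 0.0409, 37.2 and 0.239 FPKM. Ccl8, which in mice acts through Ccr8, was at 21.1 FPKM in HFSC and listed at 0 in CD34a6 and bulk. In each gene the HFSC value stood far above the others, 369-fold above bulk for Ccl2 and 156-fold for Ccl7. In the authors' deposited table all 3 were called higher in HFSC than in bulk, with adjusted p = 0.000586 for Ccl2, 0.00158 for Ccl7 and 0.000212 for Ccl8. Against CD34a6, only Ccl8 of these 3 was called (adjusted p = 0.000212), while Ccl2 (adjusted p = 0.324) and Ccl7 (adjusted p = 0.322) were not, in the authors' deposited table. The ratios to CD34a6 were larger than those to bulk, at 2655 for Ccl2 and 909 for Ccl7.

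The neutrophil attractants of chromosome 5, ligands of Cxcr2, were likewise highest in HFSC. Cxcl1 was at 0.101 FPKM in CD34a6, 73.6 in HFSC and 0.125 in bulk. Cxcl2 was at 11.3 FPKM in HFSC and listed at 0 in CD34a6 and bulk. Cxcl5 was at 0.0262, 49.1 and 0.0148 FPKM. Cxcl5 thus had the largest ratio of HFSC to bulk among the genes not listed at 0 in bulk, 3326. It was nevertheless not called in the authors' deposited table, with adjusted p = 0.278 against bulk and 0.184 against CD34a6. Cxcl1 was called against both (adjusted p = 0.0211 and 0.0173), and so was Cxcl2 (adjusted p = 0.000212 in each), in the authors' deposited table. The tables' calls varied in this way for other loci with a low partner value. Of loci at 10 FPKM or more in HFSC or bulk, the authors' deposited table called 27 of 65 where the lower value was above 0 and under 0.1 FPKM, 192 of 209 where it was 0.1 to 1, and 13 of 19 where it was listed at 0.

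Within the clusters the level was not shared by all neighbours. From Ccl2 to Ccl8, the chromosome 11 cluster runs Ccl2, Ccl7, Ccl11, Ccl12, Ccl8 over 81229 bases, counting protein-coding genes only. Ccl11, an eosinophil attractant, was at most 0.474 FPKM in any of the 7 populations, and Ccl12 was listed at 0 except for 0.0399 in HFSC, although both lie between Ccl7 and Ccl8. The chromosome 5 cluster runs Cxcl5, Ppbp, Pf4, Cxcl3, Cxcl15, Cxcl1, Cxcl2 over 146579 bases. Cxcl3, also a Cxcr2 ligand, was at 0.0153 FPKM in CD34a6, 32.7 in HFSC and 0.104 in bulk, and it was called higher in HFSC than in bulk in the authors' deposited table (adjusted p = 0.0295), but not called against CD34a6 (adjusted p = 0.207). The platelet chemokine genes Ppbp and Pf4 did not exceed 0.199 FPKM in any population, and Cxcl15 was listed at 0 in all 7. These neighbours were taken for their place in the clusters after values had been seen. Cxcl3 also carries the kappaB motif, starting 73 bases before its start site, close to the 71 bases of Cxcl1.

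**Figure D2:**
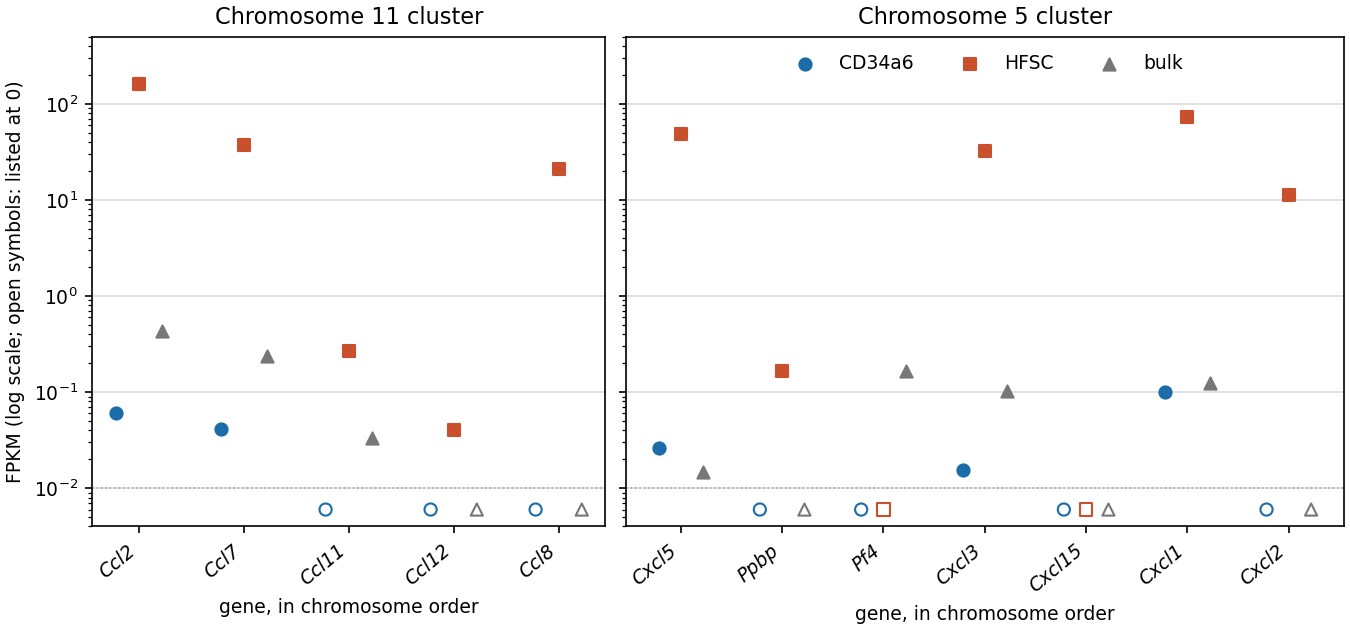
FPKM (log axis) of the genes from Ccl2 to Ccl8 on chromosome 11 (left) and from Cxcl5 to Cxcl2 on chromosome 5 (right). Genes are in chromosome order, in CD34a6 (circles), HFSC (squares) and bulk (triangles), with values of 0 as open symbols under the dotted line. In HFSC, Ccl11, Ccl12, Ppbp, Pf4 and Cxcl15 stay under 0.3 FPKM between neighbours at 11.3 FPKM or more.

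Ccl20 and Cxcl16 were also highest in HFSC but were present in bulk. Ccl20, the ligand of Ccr6 on Th17 cells and dendritic cells, was at 0.0880 FPKM in CD34a6, 49.6 in HFSC and 4.29 in bulk. Cxcl16, a membrane-bound ligand of Cxcr6 that is released by the protease Adam10, was at 12.1, 152 and 63.3 FPKM. HFSC exceeded bulk 11.6-fold for Ccl20 and 2.40-fold for Cxcl16, and both were called in the authors' deposited table (adjusted p = 0.000212 and 0.00126). Cxcl16 was called in all 3 pairs of this table, 12.5-fold higher in HFSC than in CD34a6 and lower in CD34a6 than in bulk. Ccl20 was called neither between HFSC and CD34a6 nor between CD34a6 and bulk, with adjusted p = 0.121 in both in the authors' deposited table.

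Ccl27a and Cxcl14 ran the other way. Ccl27a, which draws skin-homing T cells through Ccr10, was at 48.3 FPKM in CD34a6, 12.3 in HFSC and 429.6 in bulk. Cxcl14, a chemokine made steadily by epithelia, was at 785, 22.9 and 133 FPKM. The populations separate these 2 genes, since bulk was highest for Ccl27a and CD34a6 for Cxcl14. The authors' deposited table called Ccl27a lower in HFSC (adjusted p = 0.000212) and in CD34a6 (adjusted p = 0.0195) than in bulk, and did not call it between HFSC and CD34a6 (adjusted p = 0.108). The same table of the authors called Cxcl14 in all 3 pairs, each with adjusted p = 0.000212, 5.90-fold higher in CD34a6 than in bulk. On the log2 scale this difference was 2.55, and 3.72 with both populations scaled to the same total. Together the 2 genes made up 98.5% of the summed FPKM of the 10 genes in CD34a6, 89.2% in bulk and 5.98% in HFSC.

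Markers of leukocytes did not follow the chemokines that were high in HFSC. In HFSC all 5 T cell markers and 8 of 11 Langerhans and myeloid markers were under 1 FPKM, 6 of 7 mast cell and neutrophil markers were at 0, and all 8 fibroblast markers were under 1 FPKM. Of 6 endothelial and mural cell markers, 5 were under 1 FPKM in HFSC, and Acta2, smooth muscle actin, was at 62.1 FPKM against 1.19 in bulk and 0.289 in CD34a6. The part of Acta2-expressing cells in the chemokine levels was not tested.

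In the CD34 fractions of 3C cultures all 10 genes were above 1 FPKM in both fractions, and the largest ratio was that of Ccl8, on chromosome 11. Ccl8 was at 37.3 FPKM in CD34+ and 195 in CD34neg, and Ccl7 at 63.7 and 133. Ccl2 was the highest of the 10 genes in both, at 352 and 532 FPKM. Ccl8 was thus 5.24-fold and Ccl7 2.08-fold higher in CD34neg, and both were called in the authors' deposited table (adjusted p = 0.00275 each), while Ccl2, 1.51-fold higher, was not (adjusted p = 0.120). No gene was called higher in CD34+ (1, Cxcl5, had an unadjusted p under 0.05 in the authors' deposited table), and the 2 called lower of 10 stand beside 4.71% of 11370 tested loci called lower and 2.08% called higher, 6.79% in all. Cxcl5 was at 6.77 FPKM in CD34+ and 3.14 in CD34neg and was not called, with adjusted p = 0.0671 in the authors' deposited table.

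None of the other 6 genes was called between the fractions. Cxcl1 was at 21.3 FPKM in CD34+ and 19.6 in CD34neg, and Cxcl2 at 9.93 and 12.8. Ccl20 was at 13.5 and 17.1 FPKM and Cxcl16 at 119 and 157. Ccl27a was at 13.4 and 21.8 FPKM, a 1.62-fold difference, and Cxcl14 at 3.66 and 2.59. Summed FPKM over all loci was lower in CD34+, by 0.41 on the log2 scale. With both fractions scaled to the same total, Ccl20, Cxcl2 and Cxcl16 turned to slightly higher in CD34+, and Ccl7 and Ccl8 stayed lower. Cd34 was at 38.7 FPKM in CD34+ and 2.26 in CD34neg, and all 5 T cell markers were at 0 in both. The summed Langerhans and myeloid markers were 11.4 and 10.5 FPKM, and Acta2 was at 31.8 FPKM in CD34+ and 12.9 in CD34neg.

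Between the inhibitors, all 10 genes had the lower value with dorsomorphin, as did 53.0% of 11505 tested loci. The authors' deposited table called 3 of 10 lower, where 1.31% of loci were called lower and 1.26% higher, 2.57% in all, and these were Ccl2, Ccl7 and Ccl8. Ccl2 was at 155 FPKM with cyclopamine and 105 with dorsomorphin, a 1.48-fold difference (adjusted p = 0.00479 in the authors' deposited table). Ccl7 was at 18.7 and 9.10 FPKM, 2.05-fold apart (adjusted p = 0.0170 in the authors' deposited table). Ccl8 was at 13.3 and 5.05 FPKM, 2.64-fold apart (adjusted p = 0.0305 in the authors' deposited table). Ccl8 had the largest and Ccl2 the smallest ratio of the 3, as between the fractions. Without an untreated group in this table, the data do not say which inhibitor moved a gene.

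The other 7 genes were not called between the inhibitors. Cxcl1 was at 18.03 FPKM with cyclopamine and 15.1 with dorsomorphin, Cxcl2 at 18.2 and 15.0, and Cxcl5 at 2.79 and 1.75. Ccl20 was at 20.9 and 19.2 FPKM and Cxcl16 at 138 and 109. Ccl27a was at 11.9 and 7.68 FPKM and Cxcl14 at 2.24 and 1.82. Their differences ran from 1.09-fold for Ccl20 to 1.60-fold for Cxcl5. A p above the threshold does not show that they were equal. Summed Langerhans and myeloid markers were 37.3 FPKM with cyclopamine and 45.1 with dorsomorphin, of which Cd68, a lysosomal marker of macrophages, made up 26.1 and 25.6, and Vim was at 13.97 and 21.9. Acta2 was at 3.14 FPKM with cyclopamine and 6.95 with dorsomorphin, and it was called higher in the authors' deposited table. These marker values were higher with dorsomorphin except for Cd68, while the chemokine values were lower, and their part was not tested.

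**Figure D3:**
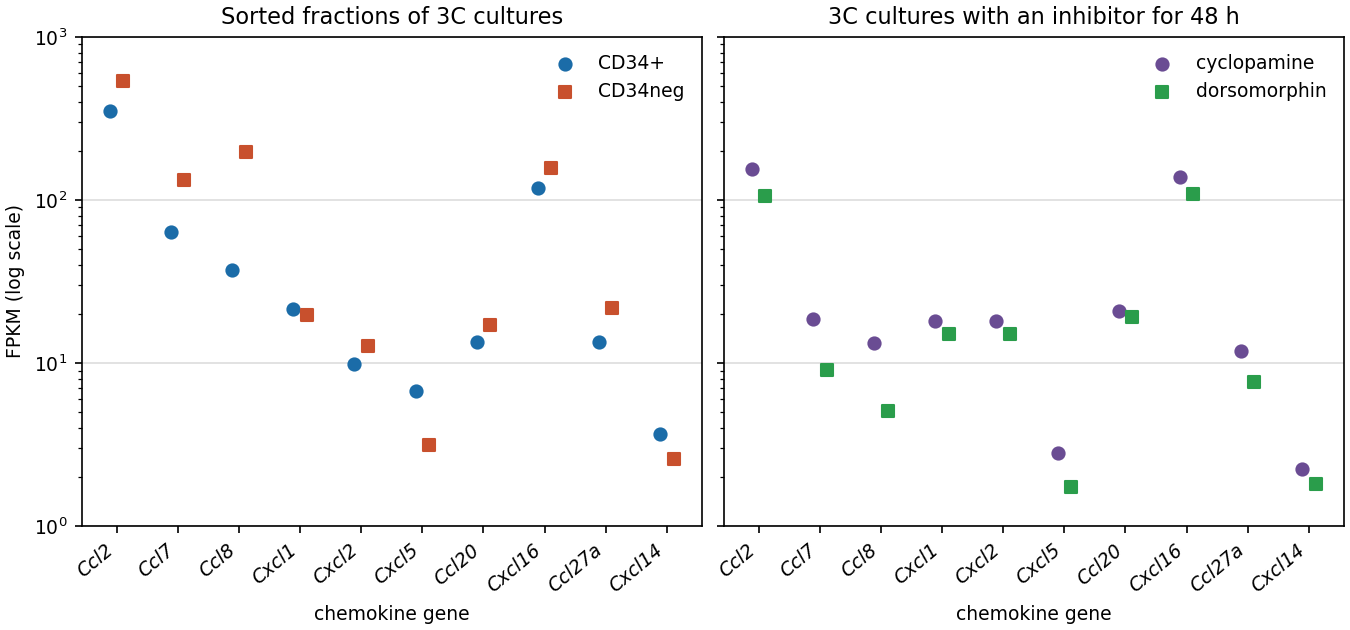
FPKM of each chemokine gene (log axis) in the CD34+ and CD34neg fractions (left) and in cultures with cyclopamine or dorsomorphin (right), 1 value per population. Ccl8 shows the widest gap in both panels, and all 10 values with dorsomorphin lie under those with cyclopamine.

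For the 5 comparisons the log2 fold, with a pseudocount of 1 FPKM that understates changes of low genes, placed the chemokines beside all tested loci. In HFSC against bulk it ran from -5.02 for Ccl27a to 6.81 for Ccl2, with a median of 4.04 over the 10 genes and -0.11 over all tested loci. In HFSC against CD34a6 the medians were 4.83 and -0.07, and in CD34a6 against bulk, over the 5 tested genes, -2.28 and 0.00. With FPKM scaled to the same total, the median of the 5 genes in CD34a6 against bulk was -1.17. In CD34+ against CD34neg they were -0.37 and -0.07, and in dorsomorphin against cyclopamine -0.40 and -0.02.

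**Figure D4:**
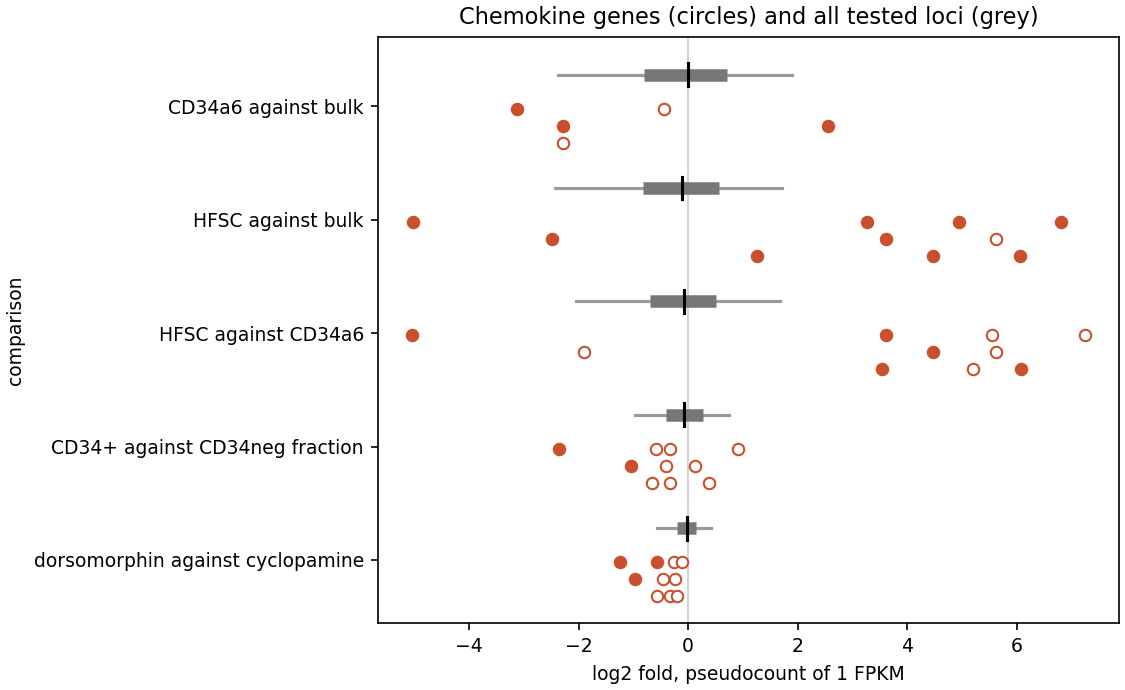
Log2 fold (pseudocount of 1 FPKM) of each tested chemokine gene, filled where called by the authors and open where not, in 5 comparisons, with the median (black line), the middle 50% (thick grey bar) and the central 90% (thin grey line) of all tested loci. In HFSC against bulk, 8 genes lie above 0 and 2 under it, and in dorsomorphin against cyclopamine all 10 lie under 0.

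The receptors of these ligands had low values in all 7 populations. Ccr2, Ccr6 and Ccr8 were listed at 0 in every population except bulk, where they were at 0.0298, 0.0403 and 0.0674 FPKM. Ccr10 did not exceed 0.0965 FPKM, Cxcr2 was at most 1.16 FPKM, with cyclopamine, and Cxcr6 was at 3.14 FPKM in bulk and at most 0.624 elsewhere. Of 21 chemokine receptors found in the table, 8 were tested in HFSC against bulk, 5 were called lower in HFSC and 0 higher (6 and 0 at an unadjusted p under 0.05 in the authors' deposited table), with a median log2 fold of -1.91. Of all loci tested in this pair, 24.7% were called lower and 19.0% higher. Among them Ackr4, a decoy receptor that takes up chemokines without signalling, was at 0.480 FPKM in HFSC and 49.2 in bulk, and Ackr3, a scavenger of Cxcl12, at 2.54 and 11.4. Of 27 further chemokine genes only 8 were tested in this pair, with 1 called higher, Cxcl3, and 3 lower, among them Ccl6 at 0.0582 FPKM in HFSC and 23.4 in bulk, and these 4 of 8 are near the 43.7% of all tested loci. In the fractions 4 of these 27 were tested, with 0 called higher in CD34+ and 2 lower, beside 2.08% and 4.71% of all tested loci. Those called lower were Cxcl10, an interferon-induced ligand of Cxcr3, at 12.96 FPKM in CD34+ and 35.9 in CD34neg, and Cxcl9 at 1.18 and 2.79.

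Genes of the pathways that induce these chemokines were counted in the same way. Of 17 NF-kappaB factors and feedback targets, all tested, 4 were called higher in HFSC and 0 lower when set against bulk, with a median log2 fold of 0.41. At an unadjusted p under 0.05 in the authors' deposited table these counts were 7 and 0. Those 4 were Bcl3, a nuclear NF-kappaB cofactor, at 33.8 and 9.03 FPKM, the adhesion gene Icam1 at 45.9 and 11.6, the cofactor Nfkbiz at 22.1 and 6.07, and the inhibitor Tnfaip3 at 22.5 and 6.23. Against CD34a6, 11 of 17 were called higher in HFSC and 0 lower, with a median of 0.87, and 13 and 0 had an unadjusted p under 0.05 in the authors' deposited table. The shares of all tested loci called higher in these pairs were the 19.0% and 25.2% given above, and the 4 of 17 against bulk are near the first. In CD34a6 against bulk, 0 of 17 were called higher and 6 lower, with a median of -0.55, beside 22.0% and 24.3% of all tested loci. In the fractions and between the inhibitors, 0 of 15 tested were called in either direction, beside 6.79% and 2.57% of all tested loci. With an unadjusted p under 0.05 in the authors' deposited table, 1 was lower in CD34+, and between the inhibitors 1 was higher and 1 lower with dorsomorphin.

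Inducing cytokines and their receptors were divided in HFSC against bulk, but not in the pairs with CD34a6. Of 18 tested in HFSC against bulk, 5 were called higher and 4 lower, with a median log2 fold of 0.00. These 9 of 18 are near the 43.7% called among all tested loci. Against CD34a6, 10 of 17 were called higher in HFSC and 1 lower (25.2% and 29.0% of all tested loci), with a median of 1.90. In CD34a6 against bulk, 0 of 17 were called higher and 10 lower (22.0% and 24.3% of all tested loci), with a median of -1.79. Tslp, an epithelial cytokine that acts on dendritic cells, was at 293 FPKM in HFSC and 0.521 in bulk, and Il18, an inflammasome-processed cytokine, at 8.38 and 212. In the fractions 3 of 15 tested were called lower in CD34+ and 0 higher, beside 4.71% and 2.08% of all tested loci. Between the inhibitors 1 of 17 was called lower with dorsomorphin and 1 higher, beside 1.31% and 1.26% of all tested loci. Tslp was among those called lower in CD34+ (400 FPKM, against 1041 in CD34neg). It was also the 1 called lower with dorsomorphin (405 FPKM, against 1543 with cyclopamine). Il1a, an alarmin that induces chemokines, was the 1 called higher, at 43.6 FPKM with dorsomorphin and 25.2 with cyclopamine. Of 12 regulators of mRNA decay and chemokine-processing enzymes, 5 were called higher in HFSC and 2 in bulk, with a median of 0.35, beside 19.0% and 24.7% of all tested loci. Zc3h12a, an endonuclease that degrades inflammatory mRNAs, was at 27.9 FPKM in HFSC and 9.26 in bulk, and Mmp13, a collagenase, at 50.3 and 0.0760.

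For 3 of the chemokines the genes with the most similar pattern were sought among 8817 loci, by Euclidean distance over 4 log2 folds, 2 of which share bulk. Nearest to Ccl2 were Anxa3 at a distance of 0.685, Lce3d at 1.34, Sprr2d at 1.504, Bst1 at 1.53 and Sprr2h at 1.798. Nearest to Cxcl1 were Bst1 at 0.545, Anxa3 at 0.915, Ccl2 at 1.16, Stab1 at 1.25 and Krt6a at 1.33. Bst1 and Anxa3 stood in both sets, and Ccl2 stood in that of Cxcl1. HFSC against bulk was by far the largest of the 4 folds of Ccl2 and Cxcl1. Both genes were selected on their HFSC and bulk levels, so their nearness to each other is not an independent result. Only loci tested in all 4 comparisons could be listed. Cxcl1, Cxcl2, Cxcl5, Ccl7 and Ccl8 were not tested in CD34a6 against bulk, so they could stand in no set. Cxcl1, at 1.16 from Ccl2, is therefore missing from the set of Ccl2, although it was closer than Lce3d. Nearest to Cxcl14 were Ppap2b at 0.801, Smim1 at 0.847, Dbp at 0.961, Il11ra1 at 1.09 and Pfn2 at 1.18. Il11ra1 lies within the span of the Ccl27a locus.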

How the data were processed

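The data are 3 deposited tables of gene-level RNA-seq comparisons made by the authors, with 1 FPKM value per locus and population, a p-value and an adjusted p (q-value) for each pair. Per the submitters' processing notes, the tools for the first 9 libraries were Cuffdiff, Cufflinks 2.2.1, HISAT 0.1.6 as aligner, the assembler StringTie 1.1.0, and FastQC 0.11.3 for read quality. For the other 12 the authors used, per the same notes, TopHat2 2.0.13, DESeq2 1.8.1, Subread 1.4.2 with its featureCounts, FastQC 0.11.2 and, for trimming, cutadapt 1.5. The build was GRCm38. All 3 tables have the layout of Cuffdiff per the file headers, so which tool made the p-values of the 12 libraries is not settled here. The deposited log2 folds were recomputed from the FPKM and not used, and neither was the score column, the authors' deposited test statistic. Tables were normalized separately, and levels were compared within a table.

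Exact repeated lines (197 in the 3-population, 1358 in the inhibitor and 1360 in the fraction table) were left out. From the deposited FPKM, folds and log2(FPKM + 1) differences were computed with pandas 2.3.3 and numpy 2.4.6 in Python 3.11.15. The code was run on simulated data whose changed loci and p-values were set in advance, which checks the code and not these data. With no values per library, no test of replicates could be run, and calls are the authors' adjusted p under 0.05. The deposited adjusted p matched a Benjamini-Hochberg adjustment over each whole table within 5.3e-07. The members and gene lists were chosen with earlier results of these data known. The text names the 10 genes, the receptors of their ligands, for each list at most 4 called genes per comparison with the largest folds among loci at 5 FPKM or more, and the 5 nearest genes. List symbols Il36a, Il36b and Il36g were read under their table symbols. Motifs were chosen with the sequences in view, and TGANTCA was searched as well: it was found in 1 of the Ccl27a promoters and is held by 6.75% of all promoters. Alternatives were other thresholds, pseudocounts, minimum levels and scalings, and leaving out loci that overlap another gene.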

Additional observations from a re-analysis of the deposited data

How the results depend on the processing

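Of the values for the counts of called genes and the median folds under the alternatives, 56 kept their direction and their side of the threshold or stayed within the limit for counts. Of the rest, 2 were weaker, 1 moved and 1 reversed. Without loci that overlap another gene, the called genes in CD34a6 against bulk were 1 instead of 3, since Ccl27a and Cxcl16 are then not counted. In HFSC against bulk they were then 6 instead of 9 (5 higher, 1 lower), and in HFSC against CD34a6 4 instead of 5. In dorsomorphin against cyclopamine they were then 2 instead of 3. These smaller changes stayed within the limit for counts. With an adjusted p under 0.01, the called genes in dorsomorphin against cyclopamine were 1 instead of 3, leaving Ccl2, whose locus overlaps Gm17268. With a pseudocount of 0.01 FPKM, the median log2 fold in HFSC against CD34a6 was 9.44 instead of 4.83. With FPKM scaled to the same total, the median in CD34+ against CD34neg was 0.025 instead of -0.37, and the uncalled Ccl20 (0.061), Cxcl2 (0.041) and Cxcl16 (0.0097) had log2 folds above 0. The single-gene folds under other pseudocounts and scalings, chosen after seeing the data, gave 177 further values with the same direction. A pseudocount cannot change the direction of a single-gene fold, so only the values under other scalings bear on direction. Leaving out libraries was not run, since the tables hold no value per library. No paired analysis was possible because the tables hold 1 value per population, although the titles number the libraries 1 to 3. Depth is unknown, so values near 0 carry no interval.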

Other observations

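For HFSC against CD34a6, among loci whose larger value was 10 FPKM or more, the authors' deposited table called 24 of 53 where the lower value was above 0 and under 0.1 FPKM, 30 of 35 where it was listed at 0, and 167 of 171 where it was 0.1 to 1 FPKM. In CD34a6 against bulk the order differed, with 4 of 10 called above 0 and under 0.1 FPKM, 6 of 19 at 0, and 154 of 163 at 0.1 to 1 FPKM. Ccl2, Ccl7, Ccl20 and Cxcl5, none of them called between HFSC and CD34a6, have CD34a6 values above 0 and under 0.1 FPKM, and Ccl8 and Cxcl2, both called, are listed at 0 there. Of 21 other chemokine genes with a promoter entry, 4 hold the kappaB motif, namely Ccl1, Ccl9, Cxcl3 and Cxcl10, which were named after their matches were seen.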
